A study of Rattus norvegicus with 12 samples.

Results

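The hypoxia-inducible factor (HIF) subunits and the enzymes that sense oxygen for them, 10 genes in all, were followed across 4 culture conditions of fetal rat metatarsals. They were taken by symbol and are 10 of the 30045 gene symbols in the count files. The list was chosen by function, and Hif3a in it was selected on its measured log2 response to LiCl with and without dexamethasone in these libraries. Its values are therefore given as a description without a test, and every count of changed members below covers the other 9 genes. All 10 genes passed the filter on low counts (60 counts or more in 2 or more libraries).

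The study asked whether lithium chloride can protect growing bone from glucocorticoids. Bones came from the hind paws of Sprague Dawley rat fetuses at embryonic day 19 and were kept whole in culture for 72 h. The control medium held the ethanol vehicle; the other media held dexamethasone (1 µM), a synthetic glucocorticoid, LiCl (10 mM) with ethanol, or both drugs at these concentrations. RNA of about 20 bones was pooled for each library, and each condition had 3 pools, from 3 successive experiments that the labels do not tie to the library numbers. No allele or earlier treatment separates the groups, and oxygen was not among the factors varied.

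In cells with ample oxygen, prolyl hydroxylases of the EGLN family (also called PHD) hydroxylate the HIF alpha subunits, and the ubiquitin ligase that contains VHL then marks them for destruction. Hif1an encodes a further hydroxylase, factor inhibiting HIF, which blocks the binding of coactivators. When oxygen falls, the alpha subunits (HIF-1α from Hif1a, HIF-2α from Epas1, HIF-3α from Hif3a) persist, pair with ARNT or ARNT2 and switch on genes for glucose use and vessel growth. Some products of Hif3a lack a transactivation domain and restrain the others. The growth plate has no vessels in its centre, and its chondrocytes need HIF-1α to survive there, while Vegfa draws vessels in at its edge. Because this control acts largely on protein, the RNA levels below say how much transcript there was and not how active a factor was.

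The RNA libraries held 9055581 to 21953446 counts, with medians of 20069564 in control, 10057103 with dexamethasone, 18651019 with LiCl and 10941818 with dexamethasone + LiCl. Levels are counts per 1000000 counts (CPM) scaled by TMM, and they are not divided by transcript length, so they compare libraries for 1 gene and not genes with each other. A gene is said to have risen, fallen or changed where its Benjamini-Hochberg adjusted p over 12602 genes, from the two-sided quasi-likelihood F-test of edgeR, was under 0.05. Fold changes are on the log2 scale with their standard error (SE), and n = 3 pools a condition throughout. The p-values measure the spread between pools. All 12 chondrocyte markers were tested, and their summed level was 69428 to 102321 CPM in the 12 libraries, so cartilage was present in each. The 12 glucocorticoid receptor targets all rose with dexamethasone, among them Fkbp5 by 2.86 (SE 0.10, edgeR adjusted p = 3.0e-10), Tsc22d3 by 1.56 (SE 0.10, adjusted p = 6.2e-08) and Per1 by 2.23 (SE 0.09, adjusted p = 1.0e-09).

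The promoters of the 10 members were read from the RefSeq table of the rat assembly GRCr8, which held all 10 with 11 start sites. Windows of 250 bases upstream of the start were searched on both strands for the cores of the HIF response element, ACGTG and GCGTG, and for the glucocorticoid response element, as the full palindrome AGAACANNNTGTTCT and as its single hexamer AGAACA. The windows of Hif1a, of Hif3a and of Egln3 are printed because Hif1a names the system and stayed nearly level while Hif3a and Egln3 had the widest ranges of the 10 across conditions. Capitals mark ACGTG or GCGTG on either strand.
Hif1a (chr6:98359648-98359897, plus strand): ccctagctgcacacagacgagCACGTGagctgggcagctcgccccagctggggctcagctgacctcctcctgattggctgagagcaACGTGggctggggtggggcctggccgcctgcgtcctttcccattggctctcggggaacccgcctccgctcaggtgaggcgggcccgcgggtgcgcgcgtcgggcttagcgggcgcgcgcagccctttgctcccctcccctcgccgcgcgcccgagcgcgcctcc
Hif3a, first start site (chr1:86877839-86878088, minus strand): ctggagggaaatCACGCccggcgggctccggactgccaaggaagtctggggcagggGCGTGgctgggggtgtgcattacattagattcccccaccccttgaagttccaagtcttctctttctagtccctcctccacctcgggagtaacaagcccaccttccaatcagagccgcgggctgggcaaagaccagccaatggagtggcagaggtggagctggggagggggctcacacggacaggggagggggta
Egln3 (chr6:77411016-77411265, minus strand): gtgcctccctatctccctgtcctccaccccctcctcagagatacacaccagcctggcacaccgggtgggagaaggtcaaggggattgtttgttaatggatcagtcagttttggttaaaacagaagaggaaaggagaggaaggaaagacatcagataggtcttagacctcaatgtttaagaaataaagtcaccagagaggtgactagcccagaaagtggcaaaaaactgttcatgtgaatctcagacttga
The Hif1a window held 3 matches to ACGTG, at bases 229, 228 and 164 before the start, and the first pair are the letters CACGTG read on both strands. The window of the first Hif3a start held GCGTG in 2 places, at bases 238 and 194 before the start. No core was found in the Egln3 window or at the second Hif3a start. Arnt and Egln1 held GCGTG once each, and no member held either glucocorticoid pattern. Of 33469 rat promoter windows of this length, 16.6% held ACGTG, 25.9% GCGTG, 17.5% the hexamer and 0.0120% the palindrome, so that the matches in these 11 windows are a description of the letters and not of binding. The assembly behind the counts is not settled, and no coordinate here comes from the count files.

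**Figure D1:**
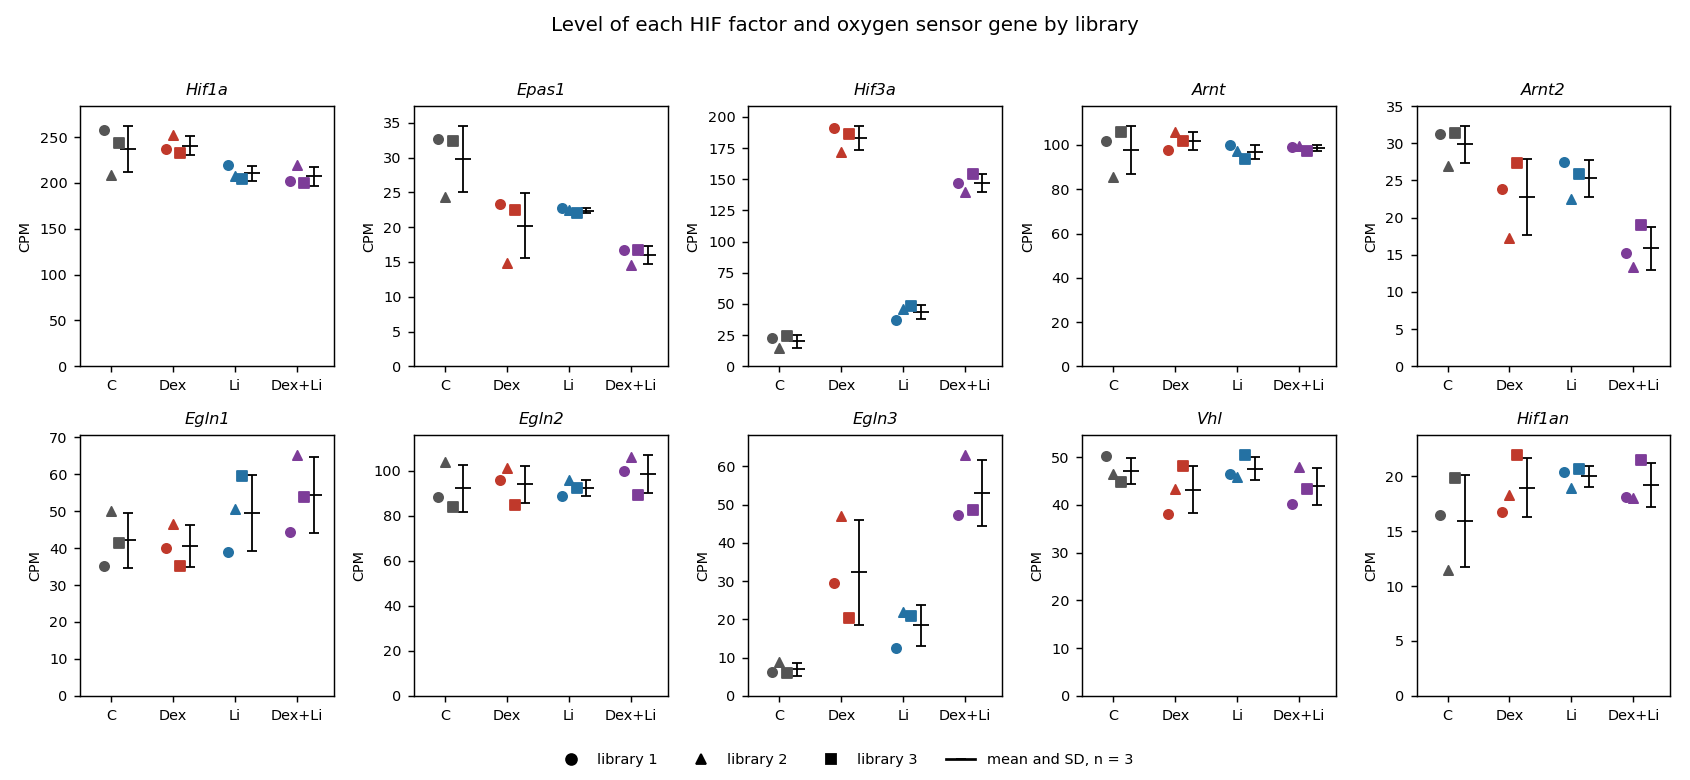
Level of the 10 genes in CPM (vertical axis, from 0) in each of the 12 libraries, by condition (C for control, Dex for dexamethasone, Li for LiCl, Dex+Li for both); marker shape gives the library number and bars the mean and SD of 3 pools. Hif3a lay at 14.3 to 24.0 CPM in control and at 172 to 191 with dexamethasone, Egln3 was highest with both drugs, and Hif1a, Arnt, Egln2 and Vhl were nearly level across conditions.

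Of the HIF alpha subunits, Hif1a, the main hypoxia factor of chondrocytes, was steady. Its control pools had 258, 209 and 244 CPM and the dexamethasone pools 237, 252 and 233 CPM. With LiCl it had 219, 208 and 204 CPM, and with both drugs 202, 219 and 200 CPM. The highest condition mean was only 1.16 times the lowest, and edgeR called Hif1a in 0 of the 5 comparisons, 2 of which had an unadjusted p under 0.05 (0.0218 with both drugs against dexamethasone and 0.035 with both against control). Its pools with both drugs all lay below those with dexamethasone, with a log2 difference of -0.22 (SE 0.09, edgeR adjusted p = 0.135). Without control library 2, its lowest control pool, Hif1a was called lower with LiCl (-0.26, adjusted p = 0.0417), with both drugs against control (-0.28, adjusted p = 0.0137) and with both against dexamethasone (-0.22, adjusted p = 0.0474).

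Hif3a had by far the widest range of the alpha subunits. The control pools had 22.3, 14.3 and 24.0 CPM (mean 20.2 ± 5.19 SD), from 495, 154 and 477 counts. Dexamethasone pools had 191, 172 and 186 CPM (183 ± 9.78). Every dexamethasone pool was above every control pool, and the log2 difference was 3.16 (SE 0.14), or 8.91-fold. LiCl pools had 36.8, 45.8 and 48.1 CPM (43.6 ± 5.97), all above control, with a log2 difference of 1.09 (SE 0.14), or 2.12-fold. With both drugs the pools had 147, 140 and 154 CPM (147 ± 6.82). These lay above all control pools (log2 difference 2.84, SE 0.14) and above all LiCl pools (1.75, SE 0.13), yet below all pools with dexamethasone alone (-0.32, SE 0.13). Adding LiCl thus went with more Hif3a RNA in the absence of dexamethasone and with less in its presence. The difference between these responses was -1.41 on the log2 scale (SE 0.19), a value on which the gene was chosen and for which no test is given. Reads were summed per symbol, so the isoforms of Hif3a with and without a transactivation domain, and the share of each start site, were not told apart.

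Epas1, which encodes HIF-2α and is abundant in endothelial cells as well as in maturing chondrocytes, was highest in control. The control pools had 32.7, 24.3 and 32.4 CPM and the dexamethasone pools 23.3, 14.9 and 22.5 CPM. LiCl pools had 22.7, 22.4 and 22 CPM. With both drugs the level was 16.7, 14.5 and 16.7 CPM. All treated pools lay below all control pools, the lowest control pool being library 2. Epas1 fell by 0.58 with dexamethasone (SE 0.15, edgeR adjusted p = 0.0197) and by 0.91 with both drugs against control (SE 0.15, adjusted p = 4.2e-04). The fall with dexamethasone was not called without control library 1 (log2 fold change -0.51, adjusted p = 0.0657), control library 3 (-0.52, adjusted p = 0.067) or dexamethasone library 2 (-0.39, adjusted p = 0.083), nor in a fit of those 2 groups alone (adjusted p = 0.0821). With LiCl the log2 difference from control was -0.43 (SE 0.14, adjusted p = 0.0726). It passed with the library number as a term in the fit, the replicate block (-0.40, adjusted p = 0.0229), and without control library 2 (-0.54, adjusted p = 0.0229) or dexamethasone library 2 (-0.42, adjusted p = 0.0208). Between both drugs and LiCl it was -0.48 (SE 0.15, adjusted p = 0.0766), with an adjusted p of 0.00653 to 0.273 over 19 alternatives. It passed with DESeq2 (adjusted p = 0.0426), without a count filter (0.0127) and in a fit of those 2 groups alone (0.00653). It also passed with the replicate block (-0.50, adjusted p = 0.0136), without control library 2 (adjusted p = 0.036) or dexamethasone library 2 (adjusted p = 0.0182). Without the latter, Epas1 was also lower with both drugs than with dexamethasone (-0.51, adjusted p = 0.0296).

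The summed level of endothelial markers was also lower in the groups with dexamethasone, while that with LiCl overlapped control. The 21 marker genes summed to 412 to 465 CPM in control, 223 to 232 with dexamethasone, 366 to 413 with LiCl and 235 to 243 with both drugs. Of the 19 tested, 15 fell with dexamethasone against control, 14 with both drugs against control and 11 with both drugs against LiCl, where 10.9%, 22.6% and 6.87% of all genes were called. With LiCl alone 2 fell, Egfl7 and Plvap, named after their values were seen. When LiCl was added to dexamethasone 0 fell and 1, Cdh5, rose by 0.37 (SE 0.10, edgeR adjusted p = 0.0298), a call that was lost without dexamethasone library 1 or 2 or dexamethasone + LiCl library 1 or 3 (adjusted p = 0.0855, 0.0869, 0.12 and 0.0579). Pecam1, an adhesion molecule of vessels, fell by 0.83 with dexamethasone (SE 0.16, edgeR adjusted p = 0.00328), Cdh5, their junction cadherin, by 1.27 (SE 0.09, adjusted p = 1.9e-07) and Kdr, the main VEGF receptor, fell by 2.55 (SE 0.17, adjusted p = 6.0e-08). Robo4, which fell under the filter, was at 0 in all 3 libraries of each group with dexamethasone and in 1 library each of control and LiCl. It had at most 3 counts in a control library and 2 in a LiCl library, so these zeros say little. In whole bones, fewer cells of a type and less RNA per cell cannot be told apart, and the part of the endothelial markers in the level of Epas1 was not tested.

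Markers of other cell types also differed between the groups. The 6 osteoclast markers in the files summed to 161 to 180 CPM in control, 85.6 to 101 with dexamethasone, 94.4 to 128 with LiCl and 75.1 to 89.2 with both drugs, so their medians had the same order as the means of Epas1. All 3 that were tested fell with dexamethasone, LiCl and both drugs against control, where 10.9%, 10.6% and 22.6% of all genes were called. The call of Acp5 with LiCl (edgeR adjusted p = 0.0413) was lost without any 1 control library (adjusted p = 0.0576, 0.0867 and 0.0937) or LiCl library 1 or 2 (0.126 and 0.169). That of Ctsk with dexamethasone (adjusted p = 0.028) was lost without control library 1 or 2 or dexamethasone library 1 or 2 (0.0755, 0.077, 0.0976 and 0.0923). Dcstamp was at 0 in all 3 libraries of each group. The 10 macrophage markers summed to 94.3 to 147 CPM in control, 219 to 254 with dexamethasone, 86.0 to 92.6 with LiCl and 174 to 211 with both drugs. With dexamethasone 5 of these 10 rose (Cd163, Mrc1, C1qa, C1qb and C1qc) and 2 fell, where 10.9% of all genes were called. Cd163 had 0 to 1 counts in control and 111 to 213 with dexamethasone. It passed the filter only through the groups with dexamethasone, so its call is no independent support. The list was split, with 5 estimates above and 5 below 0. Cd68 had a mean of 24.4 CPM in control and 17.2 CPM with dexamethasone. The 6 epidermis markers summed to 19.1 to 24.5, 41.1 to 42.3, 16.7 to 20.5 and 34.9 to 36.1 CPM in the same order of groups. As for Hif3a, the macrophage and epidermis sums of every pool with dexamethasone were above those of every pool without it. These sums do not speak for each marker in them. Of the 3 epidermis markers tested, Ppl and Evpl rose with dexamethasone. Krt10 did not pass, with means of 14.3 CPM in control and 15.9 CPM with dexamethasone. The keratins Krt5 and Krt14, which define basal epidermis, were at 0 in 2 or 3 libraries of each group. The 10 adipocyte markers summed to 47.3 to 66.5 CPM in control, 48.8 to 63.4 with dexamethasone, 20.1 to 21.9 with LiCl and 36.7 to 52.0 with both drugs. The part of these markers in the levels of Epas1 and Hif3a was not tested.

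Of the partners of the alpha subunits, Arnt stayed level and Arnt2 was lowest with both drugs. Arnt, present in nearly all cells, had condition means of 97.2 to 102 CPM, its 12 libraries lay between 85.6 and 106 CPM, and none of its log2 differences went beyond 0.06 in size. Arnt2, which is best known from the nervous system, was highest in control, at 31.2, 27.0 and 31.4 CPM. It was lower with dexamethasone, at 23.8, 17.3 and 27.3 CPM, and with LiCl, at 27.5, 22.5 and 25.8 CPM, but in both cases the pools overlapped those of control and the test was not passed (edgeR adjusted p = 0.118 and 0.307). Without dexamethasone library 3 the difference with dexamethasone passed (-0.55, adjusted p = 0.0462). With both drugs Arnt2 had 15.3, 13.3 and 19 CPM, below every control pool and every LiCl pool. It fell by 0.90 against control (SE 0.16, edgeR adjusted p = 6.4e-04) and by 0.65 against LiCl (SE 0.16, adjusted p = 0.0181). The call against LiCl was lost without LiCl library 1 or 3 (adjusted p = 0.078 and 0.0683) and without dexamethasone + LiCl library 1 or 2 (adjusted p = 0.0735 and 0.104). Against dexamethasone alone the log2 difference was -0.50 (SE 0.16, adjusted p = 0.0755), and it passed with the replicate block (-0.50, adjusted p = 0.0098), without dexamethasone library 2 (-0.66, adjusted p = 0.0135) and without dexamethasone + LiCl library 3 (-0.67, adjusted p = 0.0447).

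Egln3 encodes PHD3, the prolyl hydroxylase whose own gene is a strong HIF target. The control pools had 6.17, 8.91 and 5.89 CPM, from 137, 96 and 117 counts. Dexamethasone pools had 29.4, 47.1 and 20.3 CPM. All of these were above every control pool, with a wide spread between pools (32.3 ± 13.6 SD). LiCl pools had 12.4, 22 and 20.8 CPM, and pools with both drugs 47.3, 62.9 and 48.7 CPM. The latter exceeded every pool of the other 3 conditions, though library 1 with both drugs, at 47.3 CPM, barely passed dexamethasone library 2, at 47.1 CPM.

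Egln3 rose by 2.26 with dexamethasone, or 4.79-fold (SE 0.28, edgeR adjusted p = 5.4e-05), by 1.45 with LiCl, or 2.73-fold (SE 0.28, adjusted p = 0.00397), and by 2.96 with both drugs against control, or 7.79-fold (SE 0.28, adjusted p = 1.8e-06). Adding dexamethasone to LiCl raised it by 1.51 (SE 0.25, adjusted p = 0.00102). These 4 calls held under all 19 alternatives with a test, with an adjusted p of at most 6.7e-04, 0.0229, 3.3e-05 and 0.00685 in turn. Adding LiCl to dexamethasone gave a log2 difference of 0.70 (SE 0.25, adjusted p = 0.0955). It passed with the replicate block (0.74, adjusted p = 0.00957) and without dexamethasone library 2, the highest pool of its group (1.10, adjusted p = 0.0083). The LiCl response with dexamethasone minus that without it was -0.75 on the log2 scale (SE 0.38), a difference that was not tested.

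The summed level of skeletal muscle markers, like that of Egln3, was lowest in control and highest with both drugs. Not every marker had this order. Des had means of 15.9 CPM in control and 11.3 CPM with LiCl, and Mylpf 3.14 CPM in control and 2.68 CPM with dexamethasone. The 14 marker genes summed to 50.5 to 52.8 CPM in control, 81.0 to 120 with dexamethasone, 82.8 to 91.8 with LiCl and 201 to 248 with both drugs. Of the 9 tested, 4 rose with dexamethasone (Tnni1, Tnnt3, Des and Ldb3), 7 with LiCl and 8 with both drugs against control, where 10.9%, 10.6% and 22.6% of all genes were called. When LiCl was added to dexamethasone 7 of the 9 rose (list median 1.51), beside 8.60% of all genes, and when dexamethasone was added to LiCl 8 did, beside 6.87%. Tnnc1, a cardiac and slow-muscle troponin, fell with LiCl and with both drugs, and these genes are named after their values were seen. Acta1, the skeletal actin, rose by 3.17 with LiCl (SE 0.34, edgeR adjusted p = 1.3e-05) and by 4.46 with both drugs against control (SE 0.33, adjusted p = 5.3e-08), from 0.353 to 1.26 CPM in control to 14.4 to 19.9 CPM with both. It had 7 to 28 counts in control and 112 to 140 with LiCl. Acta1 passed the filter only through the groups with LiCl, so its calls are no independent support. Myh3, Myl1 and Tnni1, with at most 52, 17 and 29 counts in a control library, also passed only through treated groups. Each count of risen markers above includes Tnni1, and those for comparisons with LiCl include all of these genes. Among the defining markers, Tnnc2 and Ttn were at 0 in 1 control library each and Ckm in 1 dexamethasone library. The part of these markers in the level of Egln3 was not tested.

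The other prolyl hydroxylases stayed closer to control. Egln1, the main oxygen sensor in most tissues and like Egln3 a HIF target, had 35.1, 49.9 and 41.3 CPM in control and 40.0, 46.6 and 35.2 CPM with dexamethasone. With LiCl it had 38.9, 50.5 and 59.4 CPM, and with both drugs 44.3, 65.1 and 53.7 CPM. The groups overlapped in each of the 5 comparisons. The log2 difference with both drugs was 0.42 against dexamethasone (SE 0.17, edgeR adjusted p = 0.158) and 0.38 against control (SE 0.17, adjusted p = 0.12). With the replicate block both passed (0.40 with adjusted p = 0.0422, and 0.37 with adjusted p = 0.031), the latter also without control library 2 (0.51, adjusted p = 0.0488). Egln2, which is not known to be induced by hypoxia, had condition means of 92.1 to 98.3 CPM and no difference beyond 0.10 on the log2 scale.

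The last 2 members act on the alpha proteins after or beside the prolyl hydroxylases. Vhl, the substrate receptor of the ligase, had condition means of 43.2 to 47.6 CPM and passed no test. Its log2 differences were between -0.13 and 0.02. Hif1an had 16.5, 11.5 and 19.8 CPM in control and means of 18.9 to 20.0 CPM in the treated groups, with overlapping pools and log2 differences of at most 0.30 (with LiCl, SE 0.16, edgeR adjusted p = 0.228).

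**Figure D2:**
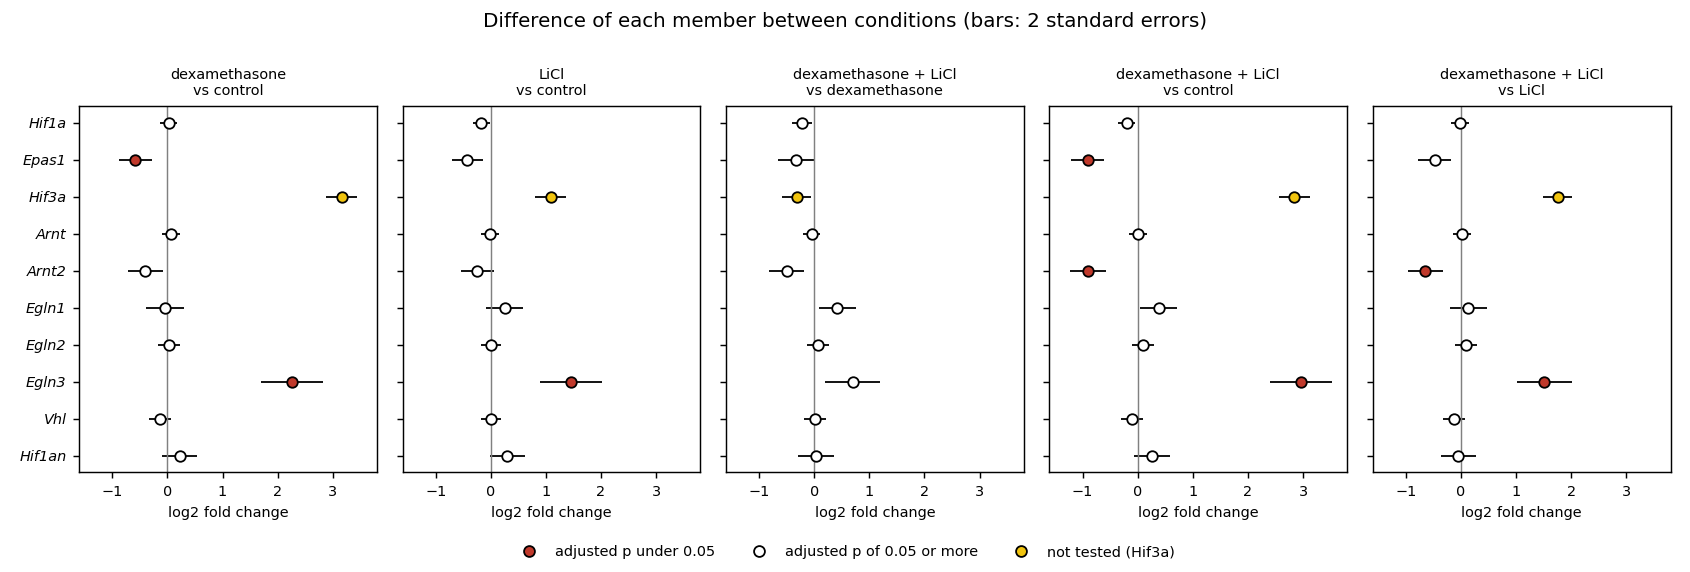
Log2 fold change of each member (points) in the 5 comparisons, with bars of 2 SE; red points passed at an adjusted p under 0.05, and Hif3a, in yellow, was not tested. Egln3 lies to the right of 0 throughout, from 0.70 to 2.96, and Epas1 and Arnt2 lie to the left, down to -0.91 and -0.90.

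Counted by comparison, 2 of the 9 tested members changed with dexamethasone against control (Egln3 up and Epas1 down), where 10.9% of all tested genes did. With LiCl against control 1 of 9 changed (Egln3), beside 10.6% of all genes. With both drugs against control 3 of 9 changed (Egln3 up, Epas1 and Arnt2 down), beside 22.6%, and against LiCl 2 of 9 (Egln3 up and Arnt2 down), beside 6.87%. With 9 genes, none of these counts is read as particular to the list. When LiCl was added to dexamethasone, edgeR called 0 of the 9, beside 8.60% of all genes; 4 had an unadjusted p under 0.05 (Hif1a, Arnt2, Egln1 and Egln3), and DESeq2 called 1 (Arnt2).

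The replicate block raised these counts. With LiCl against control it gave 2 of 9 (Epas1 added), where 15.7% of all genes passed, and with LiCl added to dexamethasone 3 of 9 (Egln1 and Egln3 up, Arnt2 down), where 12.5% did. With both drugs it gave 4 of 9 against control, beside 27.5%, and 3 of 9 against LiCl, beside 9.46%. Without the block and with a 2-fold minimum, Egln3 was the only one of the 9 called with dexamethasone (2.84% of all genes), LiCl (1.58%), both drugs against control (4.37%) and both drugs against LiCl (2.01%), and 0 of the 9 were called when LiCl was added to dexamethasone (1.36%).

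**Figure D3:**
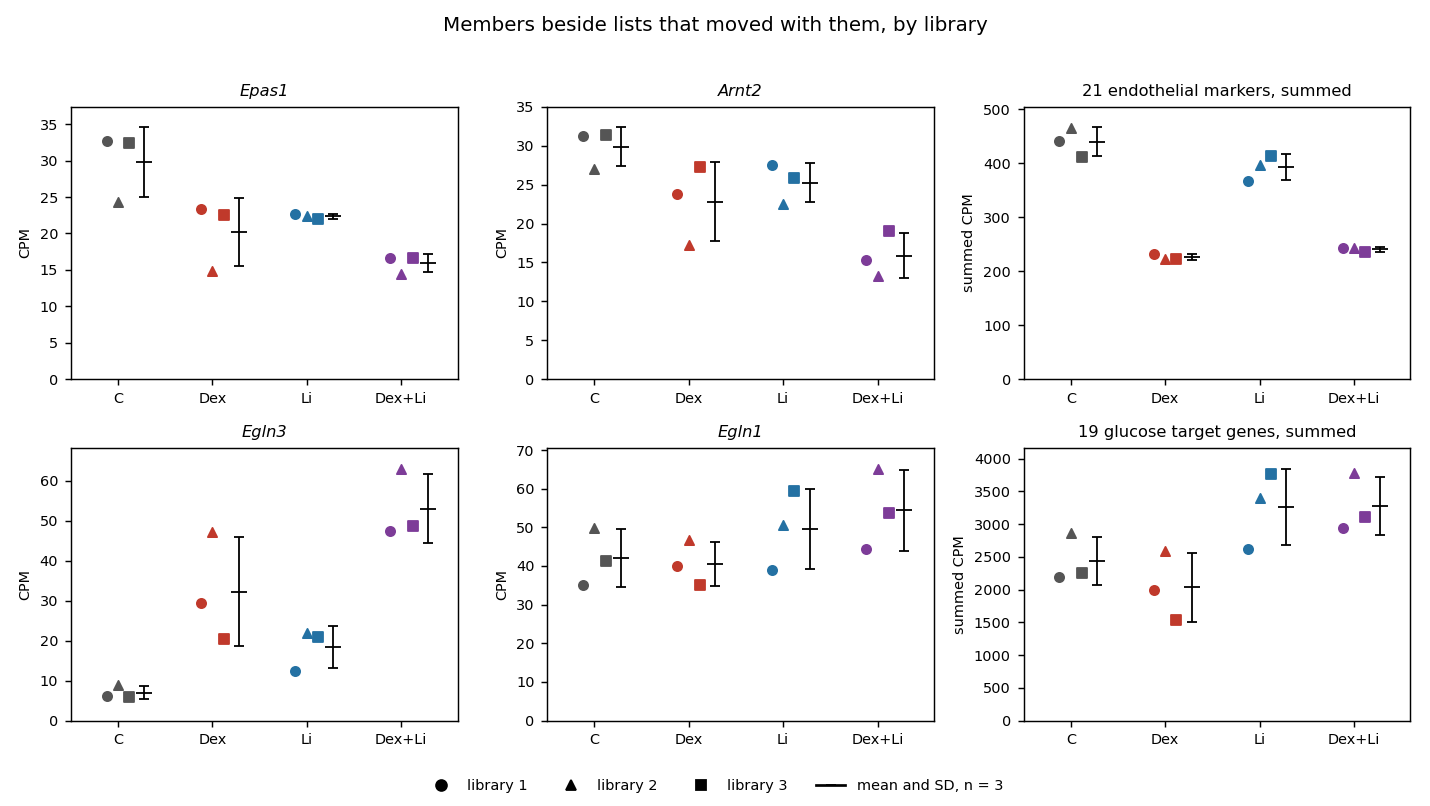
Level in CPM (vertical axes, from 0) of Epas1, Arnt2, Egln3 and Egln1 in each library by condition, beside the summed level of 21 endothelial markers and of 19 HIF target genes of glucose use; marker shape gives the library number and bars the mean and SD of 3 pools. The endothelial sum lay at 223 to 243 CPM in both groups with dexamethasone, whereas Epas1 and Arnt2 were lowest with both drugs, and library 2 was highest for Egln3 in every condition.

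The library number also went with the level of several members. Library 2 was the highest of its condition for Egln3 and Egln2 in all 4 conditions and the lowest for Arnt2 in all 4. Over the 12 libraries, the log2 CPM of Epas1 and Arnt2 correlated at r = 0.92, and that of Egln3 at -0.94 with Epas1 and -0.91 with Arnt2. These values describe 12 libraries that share conditions and, possibly, experiments, so no p is given.

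Genes that work with the members mostly passed no test. Of the 10 genes of the VHL complex and the HIF cofactors, 9 were tested (P4htm fell under the filter): the ligase subunits Elob, Eloc, Cul2 and Rbx1, the EGLN-degrading ligases Siah1 and Siah2, the coactivators Ep300 and Crebbp, and Cited2, which competes with HIF-1α for these coactivators. In 4 of the 5 comparisons 0 of the 9 passed, by edgeR and by DESeq2. At an unadjusted edgeR p under 0.05 there were 1 with dexamethasone, 2 with LiCl, 1 with LiCl added to dexamethasone and 0 with dexamethasone added to LiCl, and the log2 differences of these 4 comparisons lay between -0.36 and 0.25. With both drugs against control Cited2 fell by 0.36 (SE 0.10, edgeR adjusted p = 0.018), from 30.3 to 32.9 CPM in control to 23.0 to 25.7 CPM. This call was lost without dexamethasone + LiCl library 3 (adjusted p = 0.0822). Calls were also gained under alternatives. Among them were Crebbp with dexamethasone under the replicate block (0.26, edgeR adjusted p = 0.0382) and Cited2 with both drugs against dexamethasone. The latter passed without dexamethasone library 2 (-0.34, adjusted p = 0.0475).

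Of 7 other listed partners of ARNT 3 were tested, Ahr, Ahrr and Npas3, and the first 2 of these rose with LiCl, where 10.6% of all genes changed. Ahr, the dioxin receptor, had 8.54 to 12.3 CPM in control, 5.38 to 10.2 with dexamethasone, 24.1 to 28.9 with LiCl and 16.4 to 19.3 with both drugs. Its repressor Ahrr had 22.4 to 26.6, 22.5 to 34.6, 69.0 to 76.0 and 63.4 to 74.4 CPM in the same order. For both genes every pool with LiCl was above every pool without it. Ahr rose by 1.37 with LiCl (SE 0.18, edgeR adjusted p = 1.6e-04) and by 1.13 when LiCl was added to dexamethasone (SE 0.20, adjusted p = 0.00212). Ahrr rose by 1.60 (SE 0.12, adjusted p = 1.8e-06) and by 1.22 (SE 0.13, adjusted p = 3.6e-05). Between both drugs and LiCl alone Ahr differed by -0.52 (SE 0.17, adjusted p = 0.0923, adjusted p = 0.0294 with the replicate block). Neither passed with dexamethasone alone, though Ahrr did without dexamethasone library 3 (0.48, adjusted p = 0.0104). Npas3, a neural factor of the same protein family, passed in no comparison, with log2 differences of -0.46 to 0.13.

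Of 52 listed HIF target genes 48 were tested. They were grouped as glucose uptake and glycolysis, vessels, iron and oxygen supply, mitochondria, stress and pH, and collagen modification and chromatin. Some are also glucocorticoid targets, and Cxcr4 is also expressed by endothelium. With dexamethasone 6 rose and 4 fell (Cxcr4, Tfrc, Ppfia4 and Pfkl), with a list median of -0.07 beside 0.00 over all genes, of which 10.9% were called. Car12, a membrane carbonic anhydrase, rose by 1.35 (SE 0.17, edgeR adjusted p = 7.7e-05). Cxcr4, a chemokine receptor, fell by 2.08 (SE 0.12, adjusted p = 1.5e-08) and Tfrc, the transferrin receptor, by 0.68 (SE 0.09, adjusted p = 1.3e-04).

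With LiCl against control 8 targets rose and 2 fell (Lox and Tf, the gene of transferrin, which is named after its value was seen), and 42 of the 48 estimates lay above 0 (list median 0.43 beside 0.00 over all genes). Of all genes 10.6% were called. Car12 rose by 1.55 (SE 0.17, edgeR adjusted p = 4.1e-05), and Lox, the collagen cross-linking oxidase, fell by 0.64 (SE 0.10, adjusted p = 0.00129). The call of Tf was lost without control library 2 or 3 or any 1 LiCl library (adjusted p = 0.0561, 0.0681, 0.0892, 0.0747 and 0.0933). Plod2, a collagen lysyl hydroxylase, rose by 0.49 (SE 0.12, adjusted p = 0.0149) and Pfkl, a phosphofructokinase, by 0.45 (SE 0.12, adjusted p = 0.026). Plod2 was not called without control library 1 or LiCl library 2 or 3 (adjusted p = 0.0609, 0.0629 and 0.059), nor Pfkl without control library 1 or 3 or LiCl library 3 (0.0899, 0.063 and 0.135). The count of 10 called targets was 4 without control library 1 or 3, 3 without LiCl library 2, 2 without LiCl library 3, 16 without LiCl library 1 and 20 without dexamethasone library 2. With the replicate block it was 25 of 48, 22 of them higher, where 15.7% of all genes passed. Among the genes the block added were Adm, Ak4, Ldha, Ndrg1 and Slc2a1 (adjusted p = 0.0186, 0.0169, 0.0206, 0.0152 and 0.0343).

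When LiCl was added to dexamethasone 13 targets rose and 1 fell, with 43 of 48 estimates above 0 (list median 0.54 beside 0.00), and 8.60% of all genes were called. The 1 that fell was again Tf, at -1.90 (SE 0.45, edgeR adjusted p = 0.0166), a call that was lost without dexamethasone library 3 or dexamethasone + LiCl library 1 or 2 (adjusted p = 0.103, 0.0737 and 0.0693). It had 107 to 355 counts with dexamethasone, the group through which it passed the filter, and 34 to 170 with both drugs. Its call is therefore no independent support. Of the 18 tested genes for glucose uptake and glycolysis 10 rose and all 18 estimates lay above 0, with a sublist median of 0.67. Pfkl rose by 0.79 (SE 0.12, adjusted p = 8.8e-04), Ak4, a mitochondrial adenylate kinase, by 0.78 (SE 0.16, adjusted p = 0.00673), Ldha, lactate dehydrogenase A, by 0.94 (SE 0.22, adjusted p = 0.0176) and Slc2a1, the glucose transporter GLUT1, by 0.71 (SE 0.20, adjusted p = 0.0368). Ldha had 106 to 221 CPM with dexamethasone and 251 to 358 CPM with both drugs. Cxcr4 rose by 0.86 (SE 0.13, adjusted p = 7.2e-04) and Car12 by 1.08 (SE 0.17, adjusted p = 0.00102).

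Single libraries weighed heavily on that comparison. The count of 14 called targets was 6 without dexamethasone library 1, 31 without dexamethasone library 2, 5 without dexamethasone library 3 and 5 without dexamethasone + LiCl library 2. Ldha was not called without dexamethasone library 1 or 3 or dexamethasone + LiCl library 2 (adjusted p = 0.0783, 0.0767 and 0.0785). Slc2a1 was not called without dexamethasone library 1 or 3, LiCl library 2 or dexamethasone + LiCl library 2 or 3 (adjusted p = 0.0838, 0.143, 0.0507, 0.139 and 0.0887). With the replicate block 30 of 48 targets passed, 29 of them higher, where 12.5% of all genes did. Among the genes the block added were Pgk1, a glycolytic kinase, Pdk1, which limits pyruvate entry into mitochondria, P4ha1, a collagen prolyl hydroxylase, and Plod2 and Ndrg1 (adjusted p = 0.00807, 0.0228, 0.0119, 0.0224 and 0.0266).

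With both drugs against control 19 targets rose and 4 fell (Cxcr4, Tfrc, Ppfia4 and Angptl4, the last named after its value was seen, list median 0.50 beside 0.01), beside 22.6% of all genes. Car12 rose by 2.42 (SE 0.17, edgeR adjusted p = 1.2e-07) and Ndrg1, a stress-induced gene, by 1.57 (SE 0.23, adjusted p = 1.5e-04), while Cxcr4 fell by 1.22 (SE 0.11, adjusted p = 1.1e-06). Adm, the gene of the vasodilator adrenomedullin, rose by 1.05 (SE 0.29, adjusted p = 0.0167), a call that was lost without control library 1 or 3 or dexamethasone + LiCl library 2 (adjusted p = 0.0634, 0.051 and 0.0966). The count of 23 called targets was 13 without dexamethasone + LiCl library 2. Ldha and P4ha1 were not called (adjusted p = 0.155 and 0.0883) but passed with the replicate block (adjusted p = 0.0299 and 0.00868). Against LiCl alone 7 targets rose and 3 fell (median 0.05 beside 0.00), beside 6.87% of all genes. Cxcr4 fell by 1.15 (SE 0.11, edgeR adjusted p = 4.1e-06), Ppfia4 by 0.78 (SE 0.12, adjusted p = 7.7e-04) and Tfrc by 0.53 (SE 0.09, adjusted p = 0.00163).

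Vegfa, the vessel growth factor most closely tied to HIF, passed in no comparison. Its control pools had 372, 516 and 457 CPM and its dexamethasone pools 359, 669 and 227 CPM. LiCl pools had 418, 702 and 746 CPM, and pools with both drugs 483, 818 and 522 CPM. The pools overlapped in each of the 5 comparisons, and library 2 was the highest in 3 of the 4. Without dexamethasone library 2, the highest of its group, Vegfa was called higher with both drugs than with dexamethasone (1.06, edgeR adjusted p = 0.0238). Bnip3, a mitophagy gene, also passed in none, with log2 differences of -0.08 to 0.63 and SE of 0.30 to 0.31. Between both drugs and dexamethasone it too was called without dexamethasone library 2 (1.11, adjusted p = 0.0315). Without a count filter Vegfa passed in that comparison (adjusted p = 0.0275), and Bnip3 there, with LiCl and with both drugs against control (adjusted p = 0.00791, 0.0493 and 0.0124). The 19 glucose genes summed to 2200, 2865 and 2255 CPM in control, 1990, 2584 and 1533 CPM with dexamethasone, 2626, 3404 and 3759 CPM with LiCl and 2946, 3786 and 3102 CPM with both drugs. Every pool with both drugs was above every pool with dexamethasone alone, while the LiCl pools overlapped those of control.

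**Figure D4:**
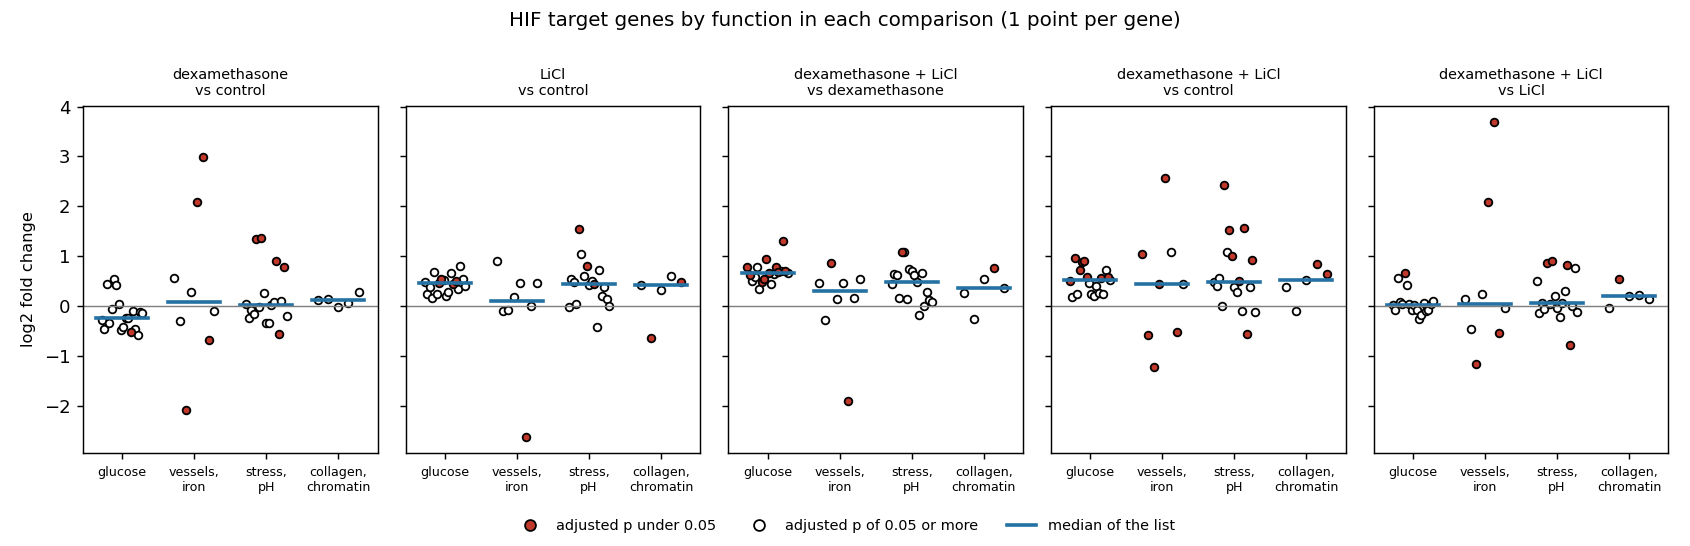
Log2 fold change (vertical axis) of the 48 tested HIF target genes, 1 point a gene, by function in the 5 comparisons; red points passed at an adjusted p under 0.05 and blue lines mark the median of each sublist. All 18 glucose genes lie above 0 with LiCl against control and when LiCl is added to dexamethasone, where their median is 0.67, against -0.23 with dexamethasone alone.

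The genes most like 3 of the members were sought by Pearson's r of log2 CPM over the 12 libraries, as a description without p. Nearest to Hif3a were Spock2 (a matrix proteoglycan, r = 0.988), Pik3r1 (a regulatory subunit of PI3 kinase, 0.985), Cpm (carboxypeptidase M, 0.983) and Per1 (a clock gene, 0.982). The mean level of Per1 was 34.9 CPM in control, 164 with dexamethasone, 54.7 with LiCl and 169 with both drugs. The log2 difference of Per1 was 0.65 between LiCl and control (SE 0.09) and 0.05 between both drugs and dexamethasone (SE 0.09), given without a test because the gene was picked for its likeness to Hif3a. Nearest to Egln3 were Mat2a (S-adenosylmethionine synthesis, r = 0.976), Tnni2 (fast skeletal troponin I, 0.972), Nfkbiz (an atypical IκB protein, 0.965), Per2 (0.964) and Plekha5 (0.964). Tnni2, with means of 3.01, 9.20, 5.73 and 15.0 CPM in control, dexamethasone, LiCl and both drugs, belongs to muscle, whose markers are given above. Nearest to Epas1 were Zfp608 (r = 0.975), Itpkb (an inositol trisphosphate kinase, 0.961), Chsy3 (a chondroitin synthase, 0.956), Foxp1 (a forkhead factor, 0.952) and Srgap1 (0.948). Zfp608 had means of 56.0, 38.7, 43.6 and 30.7 CPM in the same order, which is also the order of Epas1.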

How the data were processed

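RNA of 12 pools was sequenced after a strand-specific mRNA library kit, 3 pools in each of 4 conditions. According to the study's methods, the authors aligned reads with Subread, removed duplicates with Picard, counted reads per gene with HTSeq-count and merged technical replicates, and the deposited values are these raw counts per gene symbol. Removal of duplicates can compress the counts of abundant transcripts, and counts cover reads, not tagged molecules. The submitters' notes name human builds (hg19, GRCh37) for rat libraries, so the build behind the counts is not settled, and the strand setting of the counting is not given in the sources used here.

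A gene entered the fit when 2 or more libraries had 60 or more counts (12602 of the 23569 genes with a count). Counts were TMM-scaled and fitted over 12 libraries, with condition as the only term, with edgeR 4.0.16 in R 4.3.3 (quasi-likelihood F-test, Benjamini-Hochberg over all genes, threshold 0.05, no fold minimum). Tables and figures used Python 3.11.15, pandas 2.3.3 and matplotlib 3.10.9. Scripts were tested on simulated data. No pair of libraries of the same condition agreed within sampling noise. Alternatives were RLE scaling, DESeq2 1.42.0, filterByExpr (15274 genes), no filter (23569 genes), the replicate block, only the groups compared, a 2-fold minimum, each library left out, and counts thinned to 9055581 per library, the last chosen after the data were seen.

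The labels number the libraries 1 to 3 without saying what a number stands for. Deviations from the condition means of same-numbered libraries correlated at 0.302, 0.209 and 0.238 (LiCl and control), 0.191, 0.500 and 0.421 (both drugs and dexamethasone), 0.133, 0.145 and 0.294 (both drugs and control) and 0.279, 0.413 and 0.278 (both drugs and LiCl). All of these were over 0.1. For dexamethasone and control not all were (0.072, 0.027 and 0.170). A number shared by all 4 conditions would pair every comparison or none, so whether the numbers pair is not settled. The replicate block was fitted once over all 12 libraries and thus also pairs dexamethasone with control. Only the replicate block used the library number, and the main fit and its adjusted p-values were unpaired.

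The members and gene lists were chosen with earlier results of these data known, and the lists are no independent evidence. Named are all members, all tested VHL complex genes, cofactors and ARNT partners, 8 set HIF targets (Vegfa, Slc2a1, Ldha, Pgk1, Pdk1, Bnip3, P4ha1 and Adm), the 4 targets with the smallest adjusted p in each comparison, up to 3 markers a list and the 5 genes most like Hif3a, Egln3 and Epas1. Some genes this rule picks are not reported here by name, while counts and medians include them.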

Additional observations from a re-analysis of the deposited data

Results flagged for a closer look

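Hif3a stood out because LiCl went with opposite differences in the absence and presence of dexamethasone. All 3 LiCl pools (36.8 to 48.1 CPM) lay above all control pools (14.3 to 24.0 CPM), and all 3 pools with both drugs (140 to 154 CPM) lay below all pools with dexamethasone alone (172 to 191 CPM). The difference between the LiCl responses was -1.41 on the log2 scale (SE 0.19). It was not tested, since the gene was chosen for this pattern.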

How the results depend on the processing

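No member changed direction where it had been called, under any of the alternatives, and the fold changes of Hif3a kept their sign. In the order dexamethasone against control, LiCl against control, both drugs against dexamethasone, both against control and both against LiCl, 2, 1, 0, 3 and 2 of 9 members and 10, 10, 14, 23 and 10 of 48 targets were called. Leaving out each library in turn gave 1 to 3, 1 to 3, 0 to 3, 3 to 5 and 1 to 3 members, and 8 to 14, 2 to 20, 5 to 31, 13 to 28 and 7 to 11 targets. A 2-fold minimum left 1 member in each comparison with control or with LiCl and 5, 2, 3, 7 and 3 targets, by its construction. Without a count filter 2 members were called with LiCl and 3 with both drugs against dexamethasone, and 18, 29 and 33 targets in the first 3 comparisons. With the replicate block 2 and 3 members and 25 and 30 targets were called with LiCl against control and with both drugs against dexamethasone, and the cause was not tested. For dexamethasone against control, whose library numbers were not taken to pair, the block gave 3 members (Arnt2 added, adjusted p = 0.0182) and 15 targets, beside 14.4% of all genes. DESeq2 called 1 member with both drugs against dexamethasone, and a fit of only the groups compared called 1 with dexamethasone. The median library was shallowest in the groups with dexamethasone, and thinning all to 9055581 counts kept each of these counts within 1.5 times.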
